A study of Mus musculus with 12 samples.

Results

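Mast cell genes were followed in mouse hearts as 8 genes chosen by name, which are 8 of the 27179 genes of the deposited table: the granule protease genes Mcpt4, Cma1, Tpsb2 and Cpa3, the growth factor receptor gene Kit, the IgE receptor chain genes Fcer1a and Ms4a2, and the histamine enzyme gene Hdc. The rule took rows by gene symbol and used no measured value, but the members were chosen with earlier results of these data known. RNA-seq libraries came from hearts of 2 mouse substrains, Balb/cByJ and Balb/cJ, taken 1 week after transverse aortic constriction (TAC, a band around the aorta that makes the left ventricle pump against higher pressure) or after sham surgery. The 4 groups of 3 libraries were TAC Balb/cByJ, sham Balb/cByJ, TAC Balb/cJ and sham Balb/cJ. Both Balb/cByJ groups carry a deletion in Acads, the gene of short-chain acyl-CoA dehydrogenase, and all 4 groups ate a diet with 10 kcal% fat, begun 4 days before surgery. The labels give no age or sex for the mice.

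Mast cells are resident immune cells that lie along vessels and nerves and in the connective tissue of the heart. Their granules hold proteases bound to heparin, together with histamine, and empty when IgE on the cell surface is crosslinked or when other receptors are engaged. In mice, connective tissue mast cells are known for chymases (Mcpt4, Cma1), tryptases (Tpsb2, Tpsab1) and carboxypeptidase A3, whereas mucosal mast cells are known for Mcpt1 and Mcpt2. They depend on the receptor Kit and its ligand for growth, and on transcription factors of the GATA family, whose binding sites contain the letters GATA.

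Windows of the 3 protease genes Mcpt4, Cma1 and Cpa3 are printed because these genes gave the strain difference described further on. Each window holds the 250 bases before the transcription start as RefSeq annotates it on GRCm38.p6, on the strand of the gene. Capitals mark GATAA, or TTATC, which is the same motif on the other strand. The windows lie at chr14:56062311-56062560, chr14:55944676-55944925 and chr3:20242182-20242431, all on the minus strand.
Mcpt4: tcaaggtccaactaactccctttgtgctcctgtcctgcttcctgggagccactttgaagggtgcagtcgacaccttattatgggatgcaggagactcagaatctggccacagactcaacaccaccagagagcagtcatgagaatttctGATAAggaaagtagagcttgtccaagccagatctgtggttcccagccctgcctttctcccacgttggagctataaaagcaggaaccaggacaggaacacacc
Cma1: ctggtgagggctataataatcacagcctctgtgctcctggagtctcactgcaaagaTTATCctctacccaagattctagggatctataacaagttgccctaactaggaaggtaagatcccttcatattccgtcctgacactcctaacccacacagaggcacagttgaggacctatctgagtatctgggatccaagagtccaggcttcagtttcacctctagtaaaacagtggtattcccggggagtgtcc
Cpa3: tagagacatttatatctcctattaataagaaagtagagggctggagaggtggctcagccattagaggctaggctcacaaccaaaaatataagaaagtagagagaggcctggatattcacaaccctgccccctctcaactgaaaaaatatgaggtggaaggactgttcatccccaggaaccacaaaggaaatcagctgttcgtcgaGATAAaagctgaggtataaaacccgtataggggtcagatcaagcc
The match lay at position -102 from the start in Mcpt4, at -194 in Cma1 and at -45 in Cpa3. Fcer1a had a match at -92, Ms4a2 had 3 matches, and Kit and Hdc had none in their windows. In all, 5 of the 7 members found in the promoter table held the motif, against 22.6% of 32851 windows of the same length. The motif was searched as GATAA on both strands, and a match describes letters, not a bound site.

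All 8 members are single genes whose spans in the table did not overlap another gene of the table. On mm10, Mcpt4 (Entrez 17227, 14:56059744-56062310) and Cma1 (Entrez 17228, 14:55941451-55944661) lie on the minus strand of chromosome 14, each with 5 exons. Tpsb2 (Entrez 17229, 17:25366333-25368092) lies on the plus strand of chromosome 17 and has 6 exons. Cpa3 (Entrez 12873, 3:20215616-20242181, minus strand) has 11 exons, Hdc (Entrez 15186, 2:126593668-126618665, minus strand) has 12, and Kit (Entrez 16590, 5:75574987-75656722, plus strand) has 21. Fcer1a (Entrez 14125, 1:173221271-173227229, minus strand) has 5 exons and Ms4a2 (Entrez 14126, 19:11617193-11623643, minus strand) has 7. Of all 50-base windows along the transcripts of Mcpt4, 5.48% were found letter for letter in Cma2 or Mcpt9, and 5.38% of those of Cma1 were found in Gm48934. Ms4a2 shared 2.10% of its windows with Ms4a4b, and Hdc shared 0.14% with genes that included Pdgfra. Tpsb2, Cpa3, Kit and Fcer1a shared no such window with another gene.

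Gene values are normalized read counts, in which 1 is close to a read in a library of average depth. They summed to between 25161466 and 34157613 per library, and the estimated size factors of the libraries ran from 0.848 to 1.24. Across genes, libraries of a group correlated at r = 0.974 to 0.988. Acads had 5613 to 6697 in TAC Balb/cByJ, 6234 to 6929 in sham Balb/cByJ, 5415 to 8670 in TAC Balb/cJ and 9033 to 10928 in sham Balb/cJ. The library labelled TAC Balb/cByJ 6 went against its label at Zhx2, which had 48 in it, 728 to 838 in the other 5 Balb/cByJ libraries and 21 to 47 in Balb/cJ. The same library had 2 for Dnah17, against at least 805 in the other Balb/cByJ libraries and at most 11 in Balb/cJ. Where the call of a named gene includes this library and was lost without it, that value is given too. Ventricular genes such as Myl2 and Myh6 were abundant in all 12 libraries, and atrial genes were uneven: Myl7 had 640 to 30930 in TAC Balb/cByJ, 237 to 14508 in sham Balb/cByJ, 2381 to 15126 in TAC Balb/cJ and 6 to 13 in sham Balb/cJ. Nothing in the labels says that the 3 libraries of a group came from separate animals, so the p-values reflect only how much these libraries varied.

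The connective tissue type of protease gene was detected in every library, and the mucosal type was at or near 0. Mcpt1 was listed at 0 in all 12 libraries, and Mcpt2 at 0 in 11 of them with 2 in TAC Balb/cByJ 4. Per kilobase of exon and averaged over all libraries, the level was highest for Mcpt4 at 63.7, followed by Tpsb2 at 49.6, Cma1 at 46.6, Kit at 35.1, Hdc at 34.4 and Cpa3 at 25.6. Fcer1a, at 2.60 per kilobase, and Ms4a2, at 0.33, were near the limit of detection. The basophil protease genes Mcpt8 and Prss34 had at most 1 and at most 2 in any library. In whole-tissue RNA, more cells of a type and more RNA per cell cannot be told apart.

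**Figure D1:**
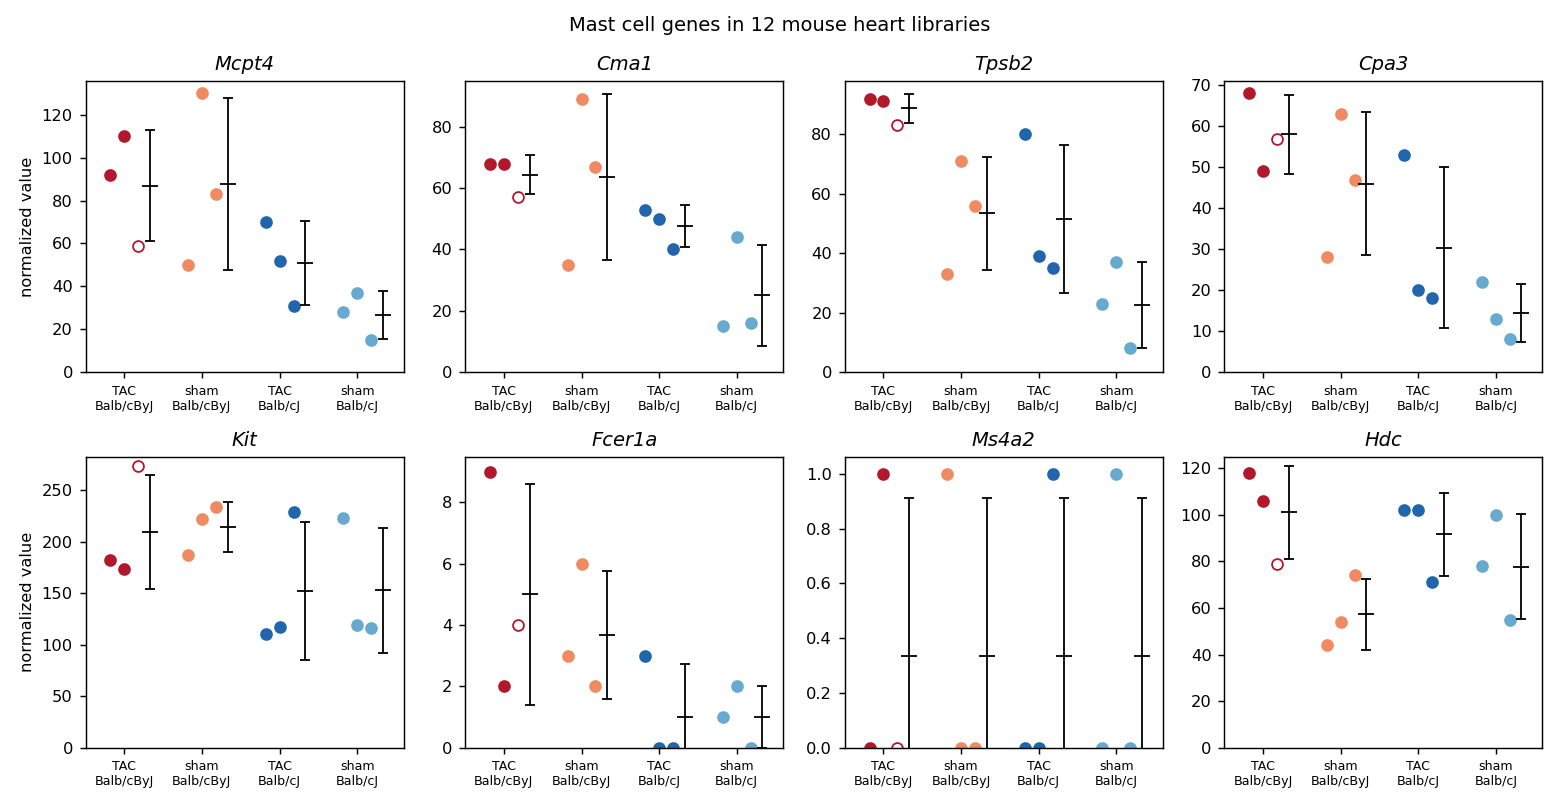
Normalized value (vertical axes) of each of the 8 mast cell genes in the 12 libraries, with 1 point per library and the mean and SD of each group of 3 beside it. The open point is the library labelled TAC Balb/cByJ 6. The 4 protease genes had their lowest group mean in sham Balb/cJ, while Kit and Hdc were ordered differently.

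Each granule protease had its lowest group mean in sham Balb/cJ hearts. The sum of Mcpt4, Cma1, Tpsb2 and Cpa3 was 320, 318 and 256 in TAC Balb/cByJ and 146, 353 and 253 in sham Balb/cByJ. It was 256, 161 and 124 in TAC Balb/cJ and 88, 131 and 47 in sham Balb/cJ. All 3 sham Balb/cByJ libraries lay above all 3 sham Balb/cJ libraries, whereas TAC Balb/cJ overlapped both sham groups. For scale, the exact Poisson 95% interval of the lowest sum, about 45 reads in sham Balb/cJ 3, ran from 34.1 to 62.5, and that of the highest, in sham Balb/cByJ 2, from 316 to 393. Between the sham groups, the nearest sums were 146 in sham Balb/cByJ 1 and 131 in sham Balb/cJ 2. Their intervals, 122 to 173 and 108 to 158, overlapped. Such intervals cover counting error only.

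No single protease made up the sum. Over the 12 libraries, Mcpt4 made up 23.0 to 36.8% (median 31.9%), Tpsb2 17.0 to 32.4% (median 27.2%), Cma1 17.0 to 34.0% (median 24.6%) and Cpa3 9.92 to 25.0% (median 18.2%). In sham Balb/cByJ the share of Tpsb2 was 20.1 to 22.6%, below the 28.6 to 32.4% of TAC Balb/cByJ, and the share of Mcpt4 there was 32.8 to 36.8%.

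**Figure D2:**
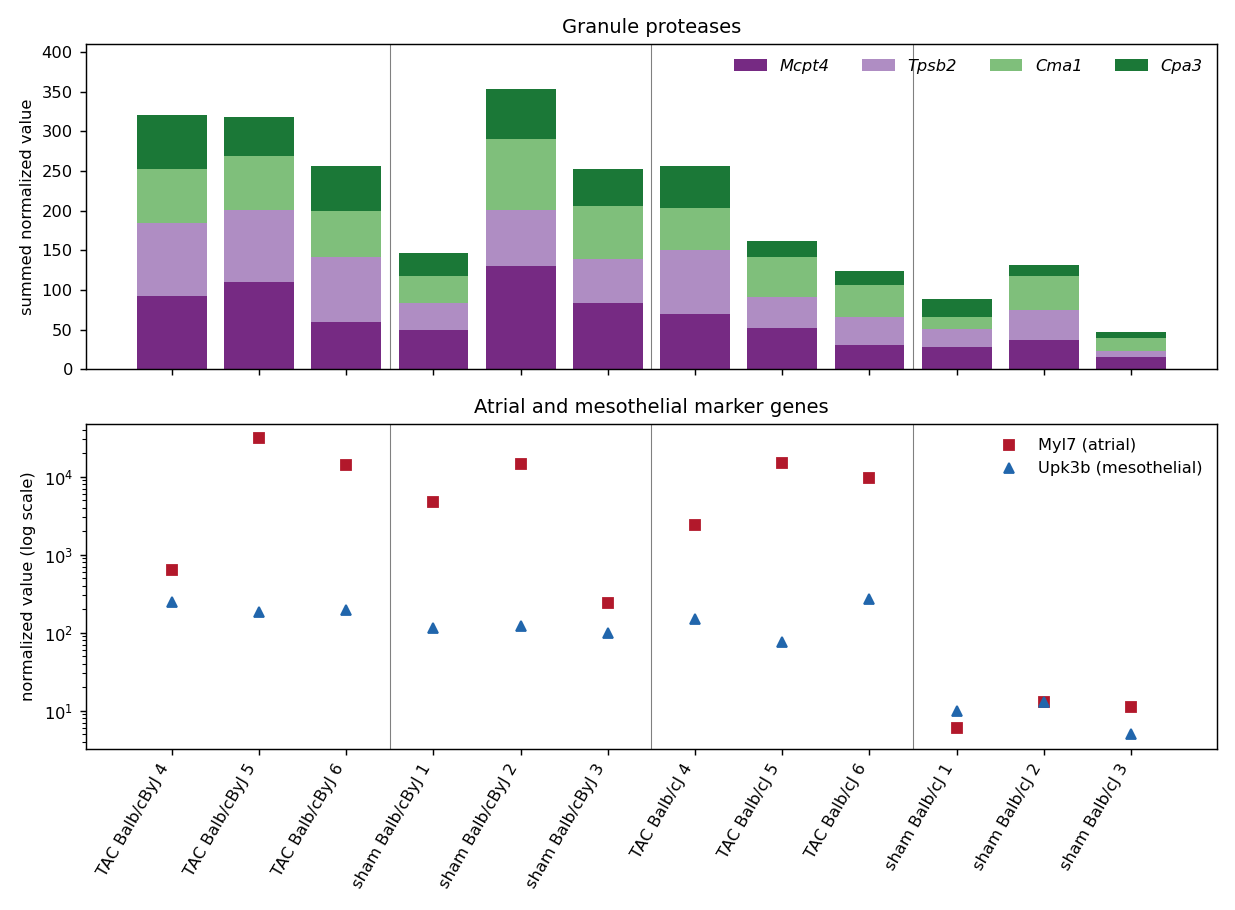
Upper panel, stacked normalized values of the 4 granule protease genes in each library, with 1 bar per library and the groups separated by lines. Lower panel, normalized values (log scale) of Myl7, an atrial gene, and Upk3b, a mesothelial gene, in the same libraries. Protease sums ran from 146 to 353 across sham Balb/cByJ and from 47 to 131 across sham Balb/cJ, and Upk3b from 98 to 123 and from 5 to 13 in those groups.

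The first comparison set Balb/cByJ against Balb/cJ in hearts that had only sham surgery. Mcpt4, a chymase that cleaves matrix proteins and angiotensin I, rose 3.29-fold in Balb/cByJ. It had 50, 130 and 83 in sham Balb/cByJ and 28, 37 and 15 in sham Balb/cJ, means of 87.7 ± 40.2 and 26.7 ± 11.1 (SD, n = 3 each), and the groups did not overlap. The log2 difference was 1.66 ± 0.42 (SE), with a limma adjusted p of 0.0486. Fold values here are ratios of group means, and log2 differences are on the log2(value + 1) scale, which understates changes of low genes. A gene passed at an adjusted p under 0.1.

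Cpa3, the carboxypeptidase that trims peptides after the endoproteases, rose 3.21-fold. Its values were 28, 63 and 47 in sham Balb/cByJ and 22, 13 and 8 in sham Balb/cJ, again without overlap, with a log2 difference of 1.65 ± 0.45 and a limma adjusted p of 0.0612. Cma1, the other chymase, rose 2.55-fold. It had 35, 89 and 67 in sham Balb/cByJ and 15, 44 and 16 in sham Balb/cJ, and its groups overlapped because sham Balb/cJ 2 lay above sham Balb/cByJ 1. The log2 difference of Cma1 was 1.39 ± 0.40, with a limma adjusted p of 0.0733.

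Tpsb2, a tryptase that acts on fibronectin and on the receptor PAR2, did not pass, although its difference was close to that of Cma1. It had 33, 71 and 56 in sham Balb/cByJ and 23, 37 and 8 in sham Balb/cJ, a log2 difference of 1.36 (95% interval 0.33 to 2.40) with a limma adjusted p of 0.124. Kit and Hdc did not pass in this comparison (adjusted p = 0.322 and 0.384, limma). Thus 3 of the 6 members with a mean of at least 10 passed, all higher in Balb/cByJ, where 8.37% of the 14038 genes tested passed in either direction and 4.27% passed as higher and 4.1% as lower. For 2 of the 6 the groups did not overlap, where 13.4% of all genes had Balb/cByJ wholly above Balb/cJ and 13.8% wholly below. The median log2 difference of the 6 was 1.38, against -0.01 over all genes tested.

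Calls of the strain difference were lost when single libraries were left out. Without sham Balb/cJ 3, sham Balb/cByJ 2 or sham Balb/cByJ 3, no member passed, with adjusted p of 0.131, 0.176 and 0.117 for Mcpt4 and log2 differences of 1.31, 1.33 and 1.65. Without sham Balb/cJ 1, Cma1 did not pass (limma adjusted p = 0.143), and without sham Balb/cJ 2, Cpa3 did not (0.184).

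Markers of other tissue moved with the same contrast. After sham surgery, 5 of 7 atrial marker genes and 5 of 8 epicardial and mesothelial ones passed as higher in Balb/cByJ, with median log2 differences of 5.32 and 2.75. None of these passed as lower. Some genes of these lists, such as Sln, Hamp, Upk1b and Lrrn4, were below 10 in every sham Balb/cJ library. They met the minimum mean of 10 only through groups where they were higher. Of all genes, 4.27% passed as higher and 4.1% as lower. Summed epicardial and mesothelial markers had sums of 495 to 509 across sham Balb/cByJ and 297 to 362 across sham Balb/cJ, and summed atrial markers 4681 to 112475 and 8737 to 18795. Nearly all of the atrial sum in sham Balb/cJ was Nppa, with 12232, 8401 and 18449. Sln had 2, 8 and 0 in sham Balb/cJ and 1576, 6466 and 64 in sham Balb/cByJ. Upk1b and Lrrn4, which mark mesothelium, had 0 to 2 and 0 to 1 in sham Balb/cJ. Not all markers of that list went this way. Tbx18 had 128, 90 and 74 in sham Balb/cByJ and 137, 152 and 141 in sham Balb/cJ. Wt1 had 113, 80 and 219 in sham Balb/cByJ and 189, 170 and 132 in sham Balb/cJ. Within sham Balb/cByJ, Myl7 was 4670, 14508 and 237 in libraries 1, 2 and 3, and the protease sums were 146, 353 and 253. Over the 12 libraries, Pearson's r with the mean of the 4 proteases on the log2 scale was 0.80 for Upk3b and 0.65 for Myl7. With group means removed, r was 0.28 for Upk3b and -0.13 for Myl7. Of 10 macrophage and monocyte markers, 1 passed as higher and none as lower, a count near the 4.27% and 4.1% of all genes. The part of atrial or mesothelial tissue in the protease difference was not tested.

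**Figure D3:**
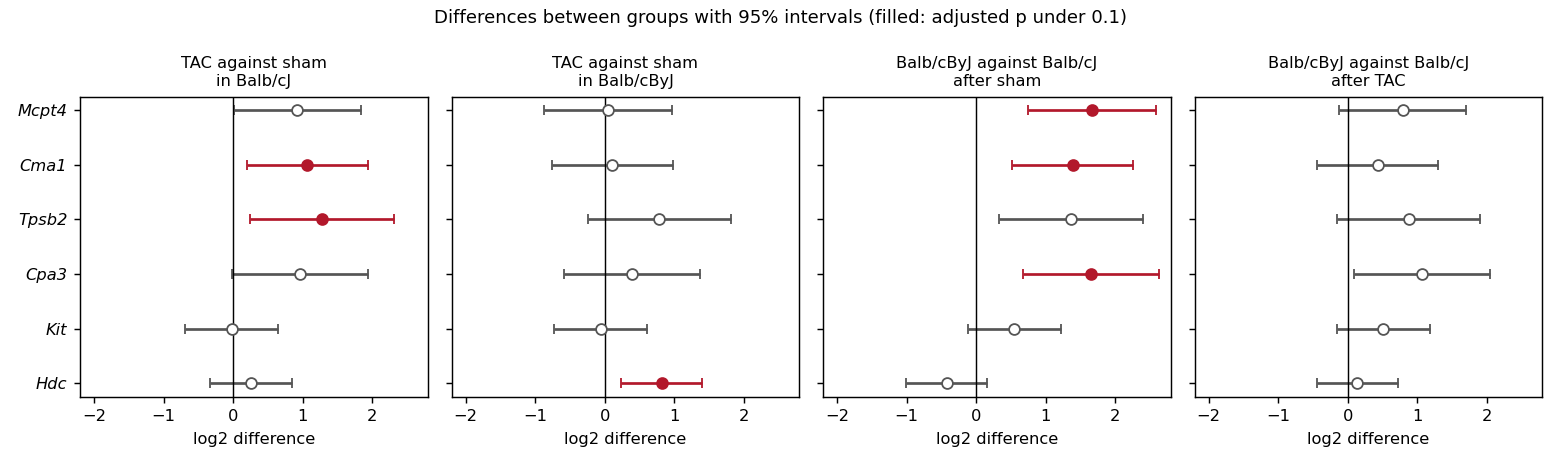
Log2 difference (horizontal axes) of the 6 members with a mean of at least 10 in the 4 comparisons between groups, with 95% intervals. Filled points passed an adjusted p under 0.1: Mcpt4, Cma1 and Cpa3 for strain after sham surgery, Cma1 and Tpsb2 for TAC in Balb/cJ, and Hdc for TAC in Balb/cByJ.

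After TAC, Balb/cByJ hearts still had the higher protease means, but no member passed. Cpa3 had 68, 49 and 57 in TAC Balb/cByJ and 53, 20 and 18 in TAC Balb/cJ, a log2 difference of 1.07 (95% interval 0.09 to 2.05) with a limma adjusted p of 0.458. Tpsb2 had 92, 91 and 83 in TAC Balb/cByJ and 80, 39 and 35 in TAC Balb/cJ, and Cma1 had 68, 68 and 57 against 53, 50 and 40 in those groups. Neither overlapped between the strains, yet their limma adjusted p were 0.587 and 0.778. Mcpt4 had 92, 110 and 59 in TAC Balb/cByJ and 70, 52 and 31 in TAC Balb/cJ, with overlap. In this comparison only 0.00712% of all genes passed, and 6.91% had Balb/cByJ wholly above Balb/cJ and 7.54% wholly below. At an unadjusted p under 0.05, 1 of the 6 members and 1371 of 14038 genes were counted, and limma on approximate reads (voom) also called no member. Without the library labelled TAC Balb/cByJ 6, again no member passed.

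The second question was whether TAC changed these genes, asked within each strain. In Balb/cJ, 2 proteases rose. Tpsb2 had 80, 39 and 35 after TAC and 23, 37 and 8 after sham surgery, means of 51.3 ± 24.9 and 22.7 ± 14.5, a 2.26-fold difference. Its log2 difference was 1.28 ± 0.48, with a limma adjusted p of 0.0739. Cma1 had 53, 50 and 40 after TAC and 15, 44 and 16 after sham surgery, a 1.91-fold difference with a log2 difference of 1.07 ± 0.40 and a limma adjusted p of 0.0749. In each gene a single sham library, sham Balb/cJ 2, reached into the range after TAC.

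Mcpt4 and Cpa3 had log2 differences of similar size in Balb/cJ, 0.92 ± 0.42 and 0.96 ± 0.45, but did not pass (limma adjusted p = 0.133 and 0.142). Mcpt4 had 70, 52 and 31 after TAC and 28, 37 and 15 after sham surgery. Cpa3 had 53, 20 and 18 after TAC and 22, 13 and 8 after sham surgery, with TAC Balb/cJ 4 standing above the other libraries. So 2 of 6 members passed as higher, in a comparison where 31.5% of all genes passed in either direction 15.3% as higher and 16.2% as lower. None of the 6 had groups that did not overlap, a state that 18.8% of all genes reached with TAC wholly above sham and 18.1% with TAC wholly below. Their median log2 difference was 0.94, against 0.00 over all genes. In the authors' deposited table, none of the 8 members had an adjusted p under 0.1 in Balb/cJ: the lowest was 0.115 for Tpsb2, with 0.147 for Mcpt4 and Cma1.

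Both calls in Balb/cJ depended on single libraries. Without sham Balb/cJ 3 the log2 difference of Tpsb2 was 0.69 (limma adjusted p = 0.260), and without TAC Balb/cJ 4 it was 0.91 (0.206). Cma1 passed when sham Balb/cJ 2 was left out (limma adjusted p = 0.0313) and did not when any of the other 5 was, with adjusted p from 0.123 to 0.221. Atrial markers (7 of 7), adipocyte markers (5 of 7, with 1 lower), epicardial and mesothelial markers (6 of 8) and macrophage markers (8 of 10) passed as higher in the same comparison. Of all genes, 15.3% passed there as higher and 16.2% as lower. Some of these markers, such as Sln, Hamp, Retn and Lrrn4, were below 10 in every sham Balb/cJ library. They met the minimum mean of 10 only through groups where they were higher. Adipoq, which adipocytes secrete, had 33 to 208 after TAC and 2 to 4 after sham surgery in Balb/cJ, and Upk3b 76 to 268 and 5 to 13. Their part in the protease values was not tested.

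In Balb/cByJ the mean chymase levels after TAC and after sham surgery were close, within wide intervals. Mcpt4 averaged 87.0 ± 25.9 after TAC and 87.7 ± 40.2 after sham surgery, and Cma1 64.3 ± 6.35 and 63.7 ± 27.2. The 95% interval of the log2 difference ran from -0.87 to 0.96 for Mcpt4 and from -0.76 to 0.98 for Cma1. Changes within those bounds were therefore not excluded. Tpsb2 had 92, 91 and 83 after TAC and 33, 71 and 56 after sham surgery, without overlap, but did not pass (log2 difference 0.79 ± 0.48, limma adjusted p = 0.303). Cpa3 had a log2 difference of 0.39 ± 0.45 (limma adjusted p = 0.597). In the authors' deposited table for TAC in Balb/cByJ, Tpsb2 had an adjusted p of 0.114, Cpa3 of 0.634, Cma1 of 0.988 and Mcpt4 of 0.989. The difference between the strains in their response to TAC, the strain by surgery interaction, passed for no member. It was -0.88 ± 0.60 for Mcpt4 and -0.96 ± 0.57 for Cma1 (the difference with TAC in Balb/cByJ minus the one in Balb/cJ, limma adjusted p = 0.790 and 0.751). Only 0.00712% of all genes passed that test, no member had an unadjusted p under 0.05, against 954 of all genes, and voom also called no member. The comparisons within strains share their sham groups with the comparison between strains after sham surgery.

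Hdc, the enzyme that makes histamine from histidine, was the member that rose with TAC in Balb/cByJ. It had 118, 106 and 79 in TAC Balb/cByJ and 44, 54 and 74 in sham Balb/cByJ, without overlap, means of 101 ± 19.97 and 57.3 ± 15.3. The 1.76-fold difference corresponded to a log2 difference of 0.82 ± 0.27, with a limma adjusted p of 0.0893. The authors' deposited table gave an adjusted p of 0.0550 for it, with a shrunken log2 fold change of 0.6. In Balb/cJ, Hdc had 102, 102 and 71 after TAC and 78, 100 and 55 after sham surgery and did not pass (log2 difference 0.26 ± 0.27, limma adjusted p = 0.516), and the interaction did not pass either (0.56 ± 0.38, adjusted p = 0.789).

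Hdc was 1 of 6 members to pass in Balb/cByJ, where 12.6% of all genes passed, 7.81% as higher and 4.76% as lower. With Tpsb2 it was 1 of 2 members whose groups did not overlap, against 16.4% of all genes with TAC wholly above sham and 18.8% wholly below. The call was lost when any of the 6 libraries was left out, with limma adjusted p from 0.105 to 0.279 and log2 differences from 0.65 to 1.02. Without the library labelled TAC Balb/cByJ 6 the log2 difference was 0.98 (adjusted p = 0.105). By voom the adjusted p was 0.109. Without sham Balb/cByJ 1, only 6 of all genes passed as higher, against 1097 with it. Unlike the proteases, Hdc had its lowest group mean in sham Balb/cByJ, and its values after sham surgery did not differ between the strains beyond their spread (log2 difference -0.42, 95% interval -1.01 to 0.16).

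Kit, the receptor for stem cell factor, did not follow the proteases. Kit is known also in melanocytes and other Kit-positive cells, so its RNA in a whole heart need not come from mast cells. It had 182, 173 and 273 in TAC Balb/cByJ, 187, 222 and 234 in sham Balb/cByJ, 110, 117 and 229 in TAC Balb/cJ and 223, 119 and 116 in sham Balb/cJ. One library in each Balb/cJ group lay far above its 2 partners, so the groups overlapped throughout. The log2 difference of TAC against sham was -0.06 (95% interval -0.73 to 0.61) in Balb/cByJ and -0.02 (-0.69 to 0.65) in Balb/cJ. These signs turned when each library was rescaled to the same total (0.10 and 0.19), a scaling that moved the median of all genes by 0.15 and 0.21. The difference between strains was 0.55 after sham surgery and 0.51 after TAC (limma adjusted p = 0.322 and 0.624). Kitl, which encodes the ligand of Kit, did not pass either, with log2 differences of 0.04 in Balb/cByJ and -0.01 in Balb/cJ after TAC.

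The IgE receptor genes were barely detected. Fcer1a, which encodes the chain that binds IgE, had 9, 2 and 4 in TAC Balb/cByJ, 3, 6 and 2 in sham Balb/cByJ, 3, 0 and 0 in TAC Balb/cJ and 1, 2 and 0 in sham Balb/cJ. Both Balb/cByJ groups had at least 2 in each library, and 3 of the 6 Balb/cJ libraries were at 0. When all 20278 genes with any value were fitted, Fcer1a did not pass for strain after TAC (unadjusted p = 0.0175, limma adjusted p = 0.419) or after sham surgery (adjusted p = 0.320). Ms4a2, which encodes the amplifying chain, had 1 in a single library of each group and 0 in the others. At this depth no difference in these 2 genes was detectable. Fcer1g, whose product is the signaling chain shared with other Fc receptors, was far more abundant: it had 352 to 481 in TAC Balb/cByJ, 181 to 317 in sham Balb/cByJ, 383 to 465 in TAC Balb/cJ and 160 to 232 in sham Balb/cJ. It rose with TAC in both strains, by 0.89 ± 0.21 in Balb/cByJ and 1.06 ± 0.21 in Balb/cJ in log2 terms (limma adjusted p = 0.0453 and 0.00946). With each library left out in turn its adjusted p ran from 0.0108 to 0.0421 in Balb/cJ, and in Balb/cByJ from 0.00896 to 0.197, not passing without sham Balb/cByJ 1 or 3 or TAC Balb/cByJ 4 or 5. Summed macrophage and monocyte markers were 13735 to 19652 in TAC Balb/cByJ, 6507 to 11075 in sham Balb/cByJ, 13119 to 14338 in TAC Balb/cJ and 5420 to 7971 in sham Balb/cJ, and their part in the Fcer1g values was not tested.

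The order of group means was the same for Tpsb2 and Cpa3, with TAC Balb/cByJ first, then sham Balb/cByJ, TAC Balb/cJ and sham Balb/cJ. Cma1 kept that order too, and Mcpt4 differed only in that its means in TAC and sham Balb/cByJ, 87.0 and 87.7, changed places. Among neighbours in these orders, the ranges overlapped in every case except Tpsb2 between TAC and sham Balb/cByJ. Kit ran from sham Balb/cByJ through TAC Balb/cByJ and sham Balb/cJ to TAC Balb/cJ, with overlap at each step. Hdc ran from TAC Balb/cByJ through TAC Balb/cJ and sham Balb/cJ to sham Balb/cByJ, and its neighbours overlapped at each step.

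Across the 12 libraries, in which the genes share depth and the tissue taken, the protease genes varied together. Pearson's r between pairs of them was 0.758 to 0.905 on the log2 scale, and 0.342 to 0.864 after group means were removed. Kit had r from -0.30 to 0.46 with the other 5 members tested. Hdc had r from 0.24 to 0.50 with the proteases, and 0.499 to 0.780 once group means were removed. The genes most like the mean of the 6 members, among those with a mean of at least 50, were Cadm1 (r = 0.912), Anpep (0.910), Fkbp1b (0.904), Mamdc2 (0.902), Sfmbt1 (0.901), Rftn2 (0.897), Ddc (0.887) and Mier3 (0.884). With group means removed their r was 0.627 to 0.727. This list describes these libraries only.

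Of 10 other genes of mast cell granules tested, 4 rose with TAC in Balb/cByJ and 5 in Balb/cJ, where 7.81% and 15.3% of all genes passed as higher, and after sham surgery 1 was higher and 1 lower in Balb/cByJ, against 4.27% and 4.1% of all genes. Slc18a2, the vesicle transporter that loads histamine and other amines, had 18, 19 and 20 in sham Balb/cByJ and 6, 5 and 2 in sham Balb/cJ, without overlap (log2 difference 1.99 ± 0.37, limma adjusted p = 0.0133). Its mean over all libraries was 13.6, and no Balb/cJ library had more than 9. It therefore met the minimum mean of 10 only through Balb/cByJ, the strain where it was higher. Its difference passed whichever sham library was left out, with adjusted p from 0.0156 to 0.0571. After TAC it had 26, 21 and 20 in Balb/cByJ and 9, 9 and 8 in Balb/cJ, again without overlap, but did not pass (1.26 ± 0.37, limma adjusted p = 0.290). Slc18a2 also passed as higher with TAC in Balb/cJ. With single libraries left out, that log2 difference ran from 0.58 to 1.19 and its limma adjusted p from 0.0465 to 0.267, so the call was not stable. The authors' deposited adjusted p for it was 0.445. Tpsab1, a second tryptase that was chosen after its values were seen, rose with TAC in Balb/cJ, with 75, 36 and 47 after TAC and 26, 31 and 10 after sham surgery (1.28 ± 0.50, limma adjusted p = 0.0849). That call was lost without sham Balb/cJ 3, TAC Balb/cJ 4 or TAC Balb/cJ 6 (adjusted p = 0.288, 0.210 and 0.165). It had 74, 58 and 34 in TAC Balb/cByJ and 23, 70 and 27 in sham Balb/cByJ, and its difference between strains after sham surgery did not pass (0.78 ± 0.50, adjusted p = 0.388). Ctsc, which activates granule proteases and is also made by macrophages, rose with TAC by 0.62 ± 0.15 in Balb/cByJ and 0.93 ± 0.15 in Balb/cJ (limma adjusted p = 0.0442 and 0.00435). The rise of Ctsc in Balb/cJ held whichever library was left out (adjusted p from 0.00530 to 0.0218). In Balb/cByJ it was lost without sham Balb/cByJ 1 or 3, TAC Balb/cByJ 5 or the library labelled TAC Balb/cByJ 6 (adjusted p = 0.167, 0.197, 0.102 and 0.111).

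**Figure D4:**
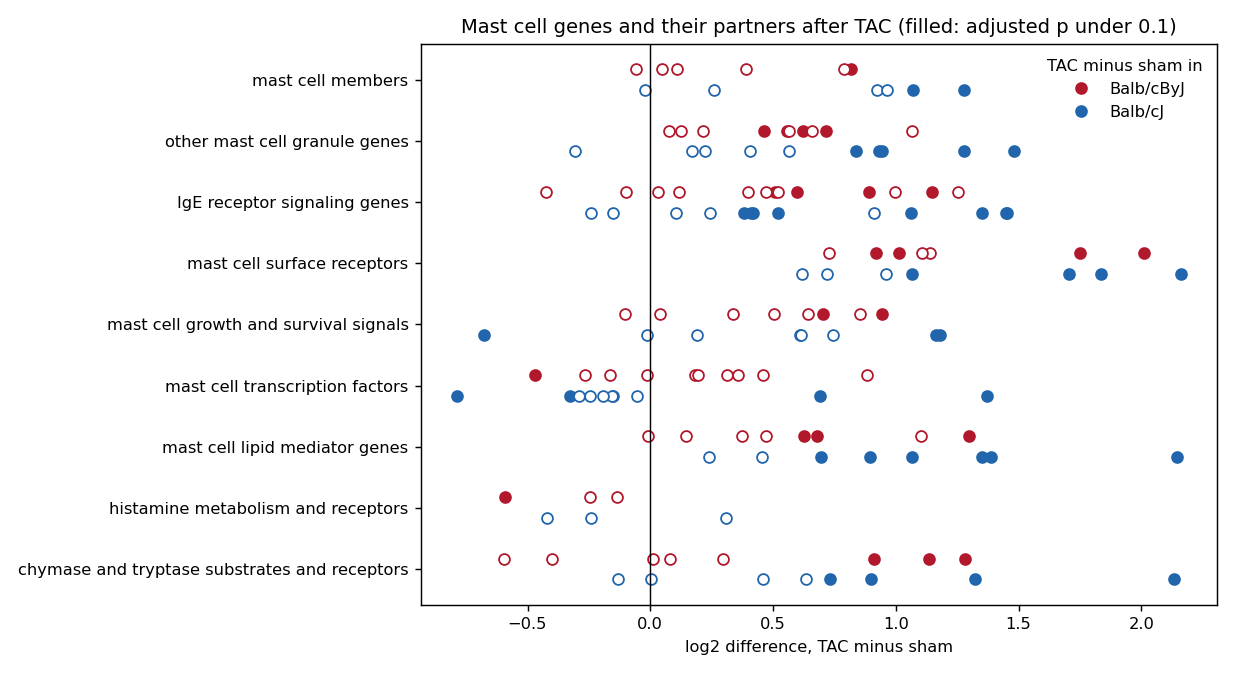
Log2 difference of TAC minus sham (horizontal axis) for each tested gene of the mast cell genes and of 8 related lists, with 1 point per gene and strain. Filled points passed an adjusted p under 0.1. In the list of surface receptors, 4 of 7 genes passed as higher in each strain, where 7.81% of all genes did in Balb/cByJ and 15.3% in Balb/cJ.

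All 13 listed genes of the signaling path below the IgE receptor had a mean of at least 10. Of these 13, 4 passed as higher with TAC in Balb/cByJ and 8 in Balb/cJ, against 7.81% and 15.3% of all genes, and none passed as lower, against 4.76% and 16.2%. Btk, a kinase of this path that B cells and myeloid cells share, had log2 differences of 1.15 ± 0.33 in Balb/cByJ and 1.45 ± 0.33 in Balb/cJ (limma adjusted p = 0.0660 and 0.0139). Among surface receptors, Csf2rb, the shared chain of the receptors for IL-3, IL-5 and GM-CSF, rose by 1.75 ± 0.39 in Balb/cByJ and 2.16 ± 0.39 in Balb/cJ (limma adjusted p = 0.0386 and 0.00681). Il1rl1, the IL-33 receptor, did not pass in either strain (0.73 ± 0.39 and 0.72 ± 0.39, limma adjusted p = 0.251 and 0.201). Its ligand gene Il33, an alarmin of stromal cells, rose by 0.94 ± 0.25 in Balb/cByJ and 1.16 ± 0.25 in Balb/cJ (limma adjusted p = 0.0593 and 0.0124). These lists hold many genes that macrophages also express, and 7 of 10 macrophage and monocyte markers rose in Balb/cByJ and 8 of 10 in Balb/cJ. In Balb/cJ, the rises of Btk, Csf2rb and Il33 passed whichever library was left out, with adjusted p of at most 0.0478, 0.0315 and 0.0522. In Balb/cByJ all 3 were lost without sham Balb/cByJ 1, sham Balb/cByJ 3 or TAC Balb/cByJ 4, with adjusted p of up to 0.240, 0.179 and 0.224. Btk was lost there without TAC Balb/cByJ 5 as well (0.111). Without the library labelled TAC Balb/cByJ 6, Btk and Il33 did not pass (0.163 and 0.127).

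Of the tested genes listed for lipid mediators, which include the receptor gene Cysltr1, 3 of 8 rose with TAC in Balb/cByJ and 6 of 8 in Balb/cJ. After sham surgery, 3 of 8 were higher in Balb/cByJ. The shares of all genes higher in these comparisons were 7.81%, 15.3% and 4.27%. Ptgs2, the inducible cyclooxygenase, had 34, 57 and 20 in sham Balb/cByJ and 13, 6 and 11 in sham Balb/cJ (log2 difference 1.73 ± 0.37, limma adjusted p = 0.0269). With TAC it rose by 2.14 ± 0.37 in Balb/cJ (limma adjusted p = 0.00566) and did not pass in Balb/cByJ (0.15 ± 0.37, adjusted p = 0.829), and the interaction did not pass (adjusted p = 0.468). Ptgs1, the constitutive cyclooxygenase, was higher by 0.98 ± 0.24 in sham Balb/cByJ hearts than in sham hearts of Balb/cJ (limma adjusted p = 0.0399). Ptgs2 was lost in this strain comparison without sham Balb/cJ 2 or sham Balb/cByJ 2 (adjusted p = 0.113 and 0.104). Ptgs1 was lost without either of these or without sham Balb/cByJ 1 (0.160, 0.146 and 0.123).

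Of 3 tested genes that clear histamine, 2 were higher and none lower in Balb/cByJ after sham surgery, against 4.27% and 4.1% of all genes. Maob, which oxidizes a breakdown product of histamine and other amines, had 1983, 2328 and 2268 in sham Balb/cByJ and 1079, 960 and 1134 in sham Balb/cJ (log2 difference 1.05 ± 0.18, limma adjusted p = 0.0107), and passed whichever library was left out (up to 0.0594). Slc22a3, a transporter that takes up histamine, was higher by 0.80 ± 0.20 in sham Balb/cByJ (limma adjusted p = 0.0495) and fell with TAC in that strain (-0.59 ± 0.20, adjusted p = 0.0996). Without a library its adjusted p ran from 0.0929 to 0.128 for strain, passing only without sham Balb/cJ 1, and from 0.113 to 0.274 for TAC, with 0.234 without the library labelled TAC Balb/cByJ 6. Hnmt, which methylates histamine, passed in no comparison. Of the histamine receptor genes, Hrh4 was listed at 0 in all 12 libraries.

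Transcription factors known from mast cells went both ways. Of 10 tested, none passed as higher and 1 as lower with TAC in Balb/cByJ, 2 as higher and 2 as lower with TAC in Balb/cJ, and 1 as higher and 1 as lower in Balb/cByJ after sham surgery. The shares of all genes in these comparisons were 7.81% higher and 4.76% lower, 15.3% higher and 16.2% lower, and 4.27% higher and 4.1% lower. Stat5a, which signals below cytokine receptors, had 694, 702 and 707 in sham Balb/cByJ and 533, 547 and 549 in sham Balb/cJ (log2 difference 0.37 ± 0.10, limma adjusted p = 0.0525). That call held only without sham Balb/cJ 1 when single libraries were left out (adjusted p from 0.0853 to 0.152). Zeb2 rose with TAC in Balb/cJ (0.69 ± 0.18, limma adjusted p = 0.0210) and passed whichever library was left out (up to 0.0874). Gata2, which endothelial cells also express, was lower in Balb/cByJ than in Balb/cJ after sham surgery, with 470, 471 and 417 against 872, 687 and 705 (log2 difference -0.73 ± 0.17, limma adjusted p = 0.0334), and was just past the threshold without sham Balb/cByJ 3 (0.102). It also fell with TAC in Balb/cJ (-0.79 ± 0.17, limma adjusted p = 0.0113). Of 8 endothelial markers, 2 passed as lower in Balb/cByJ after sham surgery, against 4.1% of all genes. With TAC in Balb/cJ, 5 passed as lower, against 16.2%. None passed as higher in these comparisons, against 4.27% and 15.3%. The part of endothelial cells in the Gata2 values was not tested. Mitf, which melanocytes and cardiomyocytes also use, fell with TAC in Balb/cByJ (-0.47 ± 0.11, limma adjusted p = 0.0400), a call lost without sham Balb/cByJ 1 or 3 or TAC Balb/cByJ 5 (0.136, 0.193 and 0.108). Of the genes for substrates and receptors of chymase and tryptase, 3 of 8 rose with TAC in Balb/cByJ and 4 of 8 in Balb/cJ, against 7.81% and 15.3% of all genes. Fn1, which encodes fibronectin, rose by 1.28 ± 0.39 in Balb/cByJ and 2.13 ± 0.39 in Balb/cJ (limma adjusted p = 0.0774 and 0.00720). In Balb/cByJ its adjusted p was up to 0.273, not passing without sham Balb/cByJ 1 or 3 or TAC Balb/cByJ 4 or 5. Agtr1a, the main angiotensin II receptor, was higher by 0.74 ± 0.14 in Balb/cByJ after sham surgery than in Balb/cJ (limma adjusted p = 0.0133), whichever library was left out (up to 0.0506). Summed fibroblast markers, which overlap in source with Fn1, were 94576 to 128400 in TAC Balb/cByJ, 38491 to 55417 in sham Balb/cByJ, 86423 to 181919 in TAC Balb/cJ and 36558 to 53385 in sham Balb/cJ.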

How the data were processed

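Libraries were made from total RNA of hearts with a stranded mRNA kit, per the labels' protocols. The authors used STAR, featureCounts of Subread, DESeq2 and build mm10, per the submitters' processing notes. Versions, annotation release and strand setting were not given in the sources used here. Gene values were deposited as a score: whole numbers left after the authors scaled each library's read counts by its size factor. This was read from gaps in the whole numbers, from which size factors of 0.848 to 1.24 were estimated and tested on simulated data. As the values are not counts, limma was used, as planned for normalized values. The authors' deposited log2 fold changes are shrunken, and their p-values adjusted, per the file headers. Gene lengths in bases (another unit) were deposited too.

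Genes with a mean of at least 10 (14038 of 20278 above 0) were fitted as log2(value + 1), 1 being the pseudocount, with a mean per group over 12 libraries (8 residual degrees of freedom) in limma 3.58.1, R 4.3.3. The filter kept 6 of the 8 members. The test was two-sided with Benjamini-Hochberg adjustment over all genes in each of 5 comparisons, at 0.1. TAC columns are numbered 4 to 6 and the titles are not, so columns were assigned by strain and surgery. Over all genes tested, sham libraries of equal number did not deviate together between the strains, so no block was used. The members and the 21 gene lists were chosen with earlier results of these data known. Up to 4 genes per list that passed in any comparison, by smallest p, were eligible to be named, and Tpsab1, Kitl, Il1rl1, Hnmt, Hrh4, Mcpt1 and Mcpt2 were named outside that rule, after their values were seen. Promoter windows came from RefSeq (GRCm38.p6; 7 of 8 members matched, not Tpsb2), and shared 50-base windows from GENCODE M21 transcripts. Python 3.11.15, numpy 2.4.6, scipy 1.17.1, pandas 2.3.3 and matplotlib 3.10.9 were used.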

Additional observations from a re-analysis of the deposited data

How the results depend on the processing

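Counts of members that passed depended on the settings. Main counts were 2 higher for TAC in Balb/cJ, 1 for TAC in Balb/cByJ, 3 for strain after sham surgery, and 0 for strain after TAC and for the interaction. An adjusted p of 0.05 gave 0, 0 and 1, no filter on low values gave 1, 0 and 3, and voom on approximate reads, added after the data were seen, gave 2, 0 and 2. Rescaling to the same total gave 4, 1 and 3, and fitting only the groups compared gave 0, 1 and 2. Pseudocounts of 0.5 and 5 and upper-quartile rescaling moved none of these counts. Leaving out each library gave 0 to 2, 0 to 0 and 0 to 3. Strain after TAC and the interaction stayed at 0 members under each of these settings that was run. Of all genes, rescaling to the same total called 3936 higher and 891 lower for TAC in Balb/cJ, against 2146 and 2273 as deposited. Without a library, genes higher with TAC in Balb/cByJ ranged from 6 to 1449, against 1097.

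The replicate block on the sham libraries gave 3 members for strain after sham surgery, with Mcpt4 at an adjusted p of 0.0281, and the block on the TAC libraries gave 0. Over all genes tested, same-number deviations correlated at -0.21, -0.065 and 0.17 for sham, so these correlations showed no pairing. Against the fit of only the sham groups, the block lowered the SE of Mcpt4, Cma1 and Tpsb2. It raised that of Cpa3, Kit and Hdc. No paired analysis was possible for the comparisons within strains, whose columns share no numbers.

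Some directions turned, none of them of a call. Kit turned under rescaling to the same total (0.10 in Balb/cByJ, 0.19 in Balb/cJ) and its interaction under voom (0.027). With a library left out, TAC differences ranged from -0.36 to 0.29 for Kit in Balb/cJ, and in Balb/cByJ from -0.30 to 0.38 for Mcpt4, -0.26 to 0.40 for Cma1 and -0.26 to 0.063 for Kit. Hdc for strain after TAC ranged from -0.034 to 0.30. The interaction ranged from -0.34 to 0.30 for Kit and from -0.94 to 0.094 for Tpsb2, whose value with all libraries was -0.49. Of 462 alternatives for members, 402 kept direction and side of the threshold, 36 lost the call, 3 gained it and 21 turned. Most of the 462 belong to results that were not calls and had no call to lose. The 402 therefore do not measure how stable the calls were. Each fit without a library also rests on fewer libraries. Why calls were lost or directions turned was not tested. Depth limits Fcer1a and Ms4a2, with at most 9 and 1 per library.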
